A study of Mus musculus with 16 samples.

Results

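The embryonic and adult haemoglobin chains were followed through 6 mouse globin genes: Hba-a1, the adult alpha chain; Hba-x, the embryonic zeta chain; Hbb-b1 and Hbb-bt, adult beta chains; and Hbb-y and Hbb-bh1, the embryonic beta-like chains. Probes were taken by the gene symbol that the array files give, with synonyms allowed. This found 9 of the 41174 probes, for 6 of the 19009 genes that could be named. Hba-a1, Hba-x and Hbb-y had 1 probe each and Hbb-bh1 had 2. The other 4 probes carry the older symbol Hbb-b1, while the RefSeq record that they cite is now named Hbb-bt. These adult beta symbols thus share 4 probes, and the probes cannot tell them apart. Probes 3 and 4 of these also cite the Hbb-b2 record. Of the 9 probes, 8 passed the filter on dim probes, and the Hba-x probe did not.

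The arrays compared Fr.B/C and Fr.A cells, the pro-B and pre-pro-B stages of the Hardy scheme, from fetal liver (FL) and adult bone marrow (BM) of BALB/c mice. The groups were FL Fr.B/C and FL Fr.A, both from embryos at day 16 of gestation, and BM Fr.B/C and BM Fr.A, both from adult females, with 4 arrays each. Every fetal liver sort came from the embryos of a single pregnant mouse, on average 8, and every bone marrow sort came from 16 mice, femur and tibia combined. Each sort gave 1 Fr.B/C and 1 Fr.A sample, and there were 4 sorts per tissue. No treatment or engineered allele entered any group, and the labels give no antibody gate. Amplified RNA of each sample was hybridised in 1 dye against a common reference RNA of 6 cell lines (P388d, DN3, EL4, J558, RS2 and R1) in the other dye, and the sample was in Cy5 on arrays 1 and 3 and in Cy3 on arrays 2 and 4.

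Haemoglobin is a tetramer of a pair of alpha-like and a pair of beta-like chains, each holding a haem group. In the mouse the alpha-like genes lie together on chromosome 11 and the beta-like genes on chromosome 7, and each cluster is driven by a shared upstream control region. Primitive red cells of the yolk sac use Hba-x, Hbb-y and Hbb-bh1. Definitive red cells, made first in the fetal liver and later in the bone marrow, use the adult genes. Fetal liver at this age is mainly an erythroid organ. BALB/c mice carry the diffuse beta haplotype, with Hbb-b1 and Hbb-b2, whereas the reference strain C57BL/6 carries the single haplotype, with Hbb-bs and Hbb-bt. By strain, the sorted cells thus carry Hbb-b1 and not Hbb-bt, and the shared label below is only the name of the probes.

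The promoters below show the sequence that lies before an adult and an embryonic gene of each cluster, since these genes are compared throughout. Each is the 150 bases before the annotated start, 5′ to 3′ on the gene's strand, from RefSeq's annotation of GRCm38.p6, so Hbb-bt is that of the reference strain. Capitals mark, on either strand, the core letters of boxes that globin promoters are known for: CACCC (bound by KLF proteins), CCAAT (bound by NF-Y), GATAA (bound by GATA proteins) and TATAA (the TATA box).
Hba-a1, chr11:32283522-32283671, plus strand: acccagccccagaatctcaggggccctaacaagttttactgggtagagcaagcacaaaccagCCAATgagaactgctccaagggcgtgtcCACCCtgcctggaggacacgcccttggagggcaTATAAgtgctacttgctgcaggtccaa
Hbb-bt, chr7:103813924-103814073, minus strand: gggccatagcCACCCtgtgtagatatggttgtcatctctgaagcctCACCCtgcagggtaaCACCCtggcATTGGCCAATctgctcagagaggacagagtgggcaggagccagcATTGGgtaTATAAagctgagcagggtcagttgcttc
Hba-x, chr11:32276450-32276599, plus strand: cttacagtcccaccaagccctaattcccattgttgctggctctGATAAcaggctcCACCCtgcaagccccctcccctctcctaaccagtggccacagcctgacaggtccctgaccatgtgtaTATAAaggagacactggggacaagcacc
Hbb-y, chr7:103853208-103853357, minus strand: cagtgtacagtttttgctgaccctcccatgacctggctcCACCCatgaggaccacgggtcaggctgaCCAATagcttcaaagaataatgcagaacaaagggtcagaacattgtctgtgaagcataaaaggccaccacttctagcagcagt

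All 4 windows held CACCC, once in Hba-a1, Hba-x and Hbb-y and 3 times in Hbb-bt. CCAAT was found once in Hba-a1 and Hbb-y and 3 times in Hbb-bt, where the matches that start 80 and 75 bases before the start, on opposite strands, abut. GATAA was matched in Hba-x only, 107 bases before its start. TATAA lay 27 bases before the start in Hba-a1 and 28 bases before it in Hbb-bt and Hba-x, and these letters were not in the Hbb-y window. Among the 32851 windows of the same length, 37.4% held CACCC, 24.5% CCAAT, 13.3% GATAA and 14.2% TATAA. Promoter sequence of the other members was not used here.

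The median sample-channel spot signal per array was 71.2 to 162, with 53.0% to 68.4% of probes well above background and 0.219% to 0.626% saturated. The arrays were scanned in 6 sessions, 4 with bone marrow arrays and 2 with fetal liver arrays, so tissue and scan session cannot be told apart. FL arrays 1 and 2 were scanned in 1 session and FL arrays 3 and 4 in another, and these pairs differed in many erythroid genes. Of 13 measured B-lineage markers, 8 were higher and 3 lower in Fr.B/C than in Fr.A of FL, with a median log2 difference of 0.89, and 8 were higher and 1 lower in Fr.B/C than in Fr.A of BM, with a median of 0.97. Among all probes that passed the filter, 10% were called higher and 12.2% lower in FL, and 14.2% and 17.2% in BM. Values below are raw spot signals, which reach a scanner ceiling of 65121 to 65285, or log2 ratios of sample over reference. Tests are limma's, over 27521 kept probes with Benjamini-Hochberg adjustment at 0.05, and a fold set in the sample channel alone comes from the same fit on that channel.

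Hba-a1, the alpha chain of adult haemoglobin, was higher in fetal liver than in bone marrow at both stages. Its sample signals were 36838, 30780, 39470 and 57215 in FL Fr.B/C, against 3194, 3116, 2289 and 3371 in BM Fr.B/C. They were 15870, 22573, 65266 and 65281 in FL Fr.A, where arrays 3 and 4 were saturated, against 5449, 5280, 4508 and 3538 in BM Fr.A. No fetal liver array overlapped a bone marrow array of either stage. In bulk samples, fewer cells of a type and less RNA per cell cannot be told apart.

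In the sample channel Hba-a1 was 12.4-fold higher in FL Fr.B/C than in BM Fr.B/C (log2 difference 3.63 ± 0.34 SE, limma adjusted p = 4.55e-07). In Fr.A it was at least 7.09-fold higher in FL, because of the saturated arrays (limma adjusted p = 6.96e-06). "At least" marks here and below a fold from normalised group means in which saturated spots stand at their recorded value. As a ratio to the reference the same difference was much smaller. The log2 ratio averaged 5.70 ± 0.62 in FL Fr.B/C and 4.49 ± 0.13 in BM Fr.B/C (SD, n = 4 each), a difference of 1.21 ± 0.23 (SE, limma adjusted p = 0.00104). It averaged 5.78 ± 0.30 in FL Fr.A and 5.02 ± 0.37 in BM Fr.A (SD, n = 4 each), a difference of 0.76 ± 0.23 (SE, limma adjusted p = 0.0221). The Fr.A call was lost when BM Fr.A array 1 or 4 or FL Fr.A array 3 or 4 was left out, with an adjusted p of at most 0.0758. The authors' deposited table of log2 ratios gave Hba-a1 means of 5.91 in FL Fr.A and 5.65 in BM Fr.A, and the limma difference on its values was 0.27 (adjusted p = 0.456). On the same table the Fr.B/C difference was 0.59 and no longer passed (adjusted p = 0.0850).

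The 4 adult beta probes were also brighter on every fetal liver array than on every bone marrow array of the same stage, and they ran into the ceiling of the scanner. Probes 1 and 4 were saturated on all 8 fetal liver arrays, between 65259 and 65285. Probe 1 read 14521, 15135, 16115 and 20980 in BM Fr.B/C and 34151, 31446, 31152 and 23323 in BM Fr.A. Probe 4 read 15011, 14196, 16725 and 23297 in BM Fr.B/C and 41460, 37280, 34418 and 30626 in BM Fr.A. These probes therefore give bounds only for fetal liver. Of the kept probes, 117 were saturated on all 8 fetal liver arrays, and 4 of them on no bone marrow array: these 2 beta probes and the probes of Snrpg and Erh.

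Probes 2 and 3 were saturated on fetal liver arrays 3 and 4 and were measured on arrays 1 and 2. Probe 2 read 46921 and 51691 on FL Fr.B/C arrays 1 and 2, against 4571, 5187, 4922 and 7170 in BM Fr.B/C. It read 35982 and 45415 on FL Fr.A arrays 1 and 2, against 11553, 10682, 9279 and 8468 in BM Fr.A. Probe 3, read with the same saturation, gave 48564 and 45718 in FL Fr.B/C and 28661 and 41841 in FL Fr.A, against 4060 to 6266 in BM Fr.B/C and 7586 to 8722 in BM Fr.A. The measured fetal liver values lay above every bone marrow value for both probes.

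In the sample channel, beta probe 3 was at least 10.5-fold higher in FL Fr.B/C than in BM Fr.B/C and at least 5.30-fold higher in FL Fr.A than in BM Fr.A (limma adjusted p = 3.28e-09 and 2.04e-07). Beta probe 2 was at least 9.18-fold higher in Fr.B/C and at least 4.51-fold higher in Fr.A (limma adjusted p = 1.58e-09 and 1.68e-07). For the fully saturated probes the bounds were lower. Probe 1 was at least 3.48-fold higher in Fr.B/C and at least 1.88-fold higher in Fr.A, and probe 4 at least 3.27-fold and at least 1.57-fold higher. Their limma adjusted p-values in the sample channel were between 7.35e-09 and 0.000829. All 5 adult probes were called higher in fetal liver in both fractions, and none overlapped between the tissues. Over all kept probes, the sample channel called 16.5% higher in Fr.B/C and 19.8% higher in Fr.A, and 16.1% and 18.5% of the probes with all arrays usable were higher with no overlap.

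**Figure D1:**
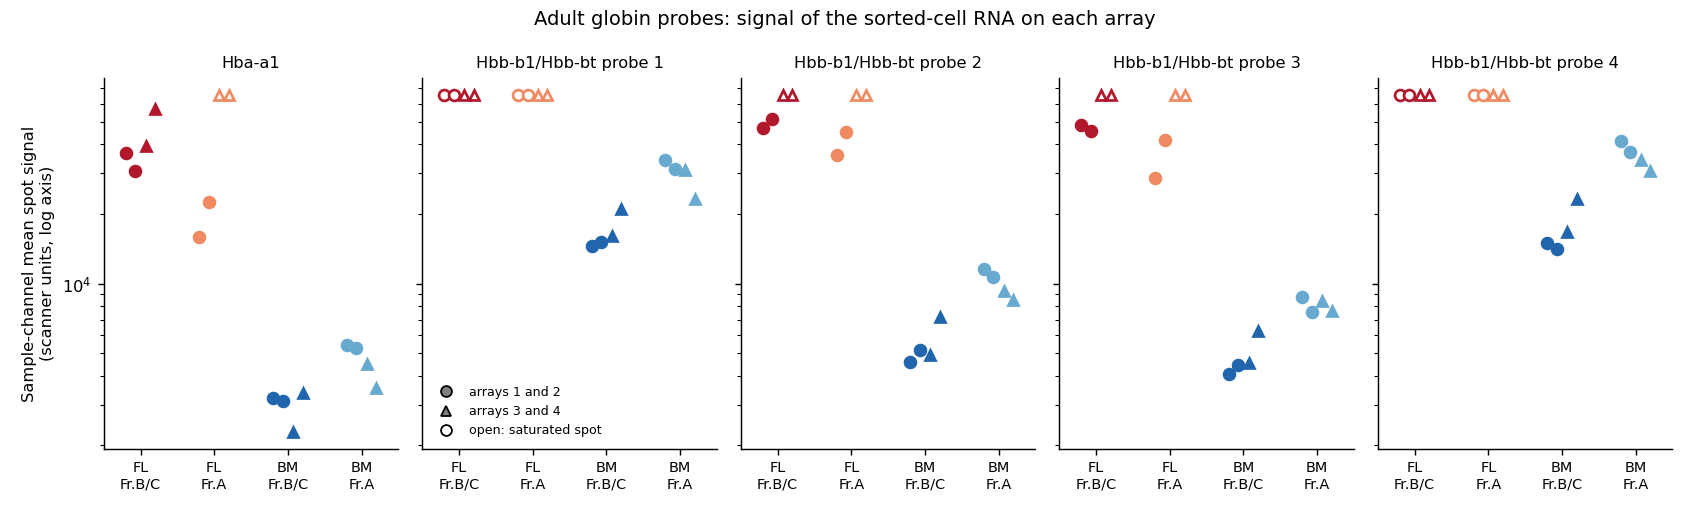
Sample-channel mean spot signal (scanner units, log axis) of Hba-a1 and of the 4 probes shared by Hbb-b1 and Hbb-bt on each array, for FL Fr.B/C, FL Fr.A, BM Fr.B/C and BM Fr.A from left to right. Circles are arrays 1 and 2, triangles are arrays 3 and 4, and open symbols are saturated spots. The fetal liver arrays stand above the bone marrow arrays in every panel, and beta probes 1 and 4 are saturated on all 8 of them.

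Read as a ratio to the reference, the adult beta probes did not share a direction. Probe 3 was higher in FL Fr.B/C than in BM Fr.B/C by 1.37 ± 0.19 (log2, SE, limma adjusted p = 7.33e-05) and differed by 0.49 ± 0.19 in Fr.A (limma adjusted p = 0.0697). Probe 2 differed by 0.30 ± 0.23 in Fr.B/C and by -0.18 ± 0.23 in Fr.A (limma adjusted p = 0.371 and 0.628). Probes 1 and 4 had lower ratios in FL Fr.A than in BM Fr.A, with differences of -0.88 ± 0.30 and -1.71 ± 0.46 (limma adjusted p = 0.0410 and 0.0123). Since their fetal liver signals are saturated, each such ratio is only a lower limit in fetal liver and gives no direction. The FL Fr.A spot of probe 4 on array 3 was an outlier spot and was not used, so its ratio rests on 3 FL Fr.A arrays. Without FL Fr.A array 4 the difference of probe 4 was -1.12 (limma adjusted p = 0.0668).

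Over both classes of member, 4 of the 8 fitted probes had a higher ratio in FL Fr.B/C and none a lower one, where 13.4% of kept probes were called higher and 14.7% lower. In Fr.A, 3 had a higher and 2 a lower ratio, both of these saturated, where 12.4% were called higher and 15.7% lower. In the sample channel 7 of the 8 were called higher in each fraction, where 16.5% of kept probes were called higher in Fr.B/C and 19.8% in Fr.A. Both Hbb-bh1 probes passed the filter through fetal liver arrays only, so these counts are a description.

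**Figure D2:**
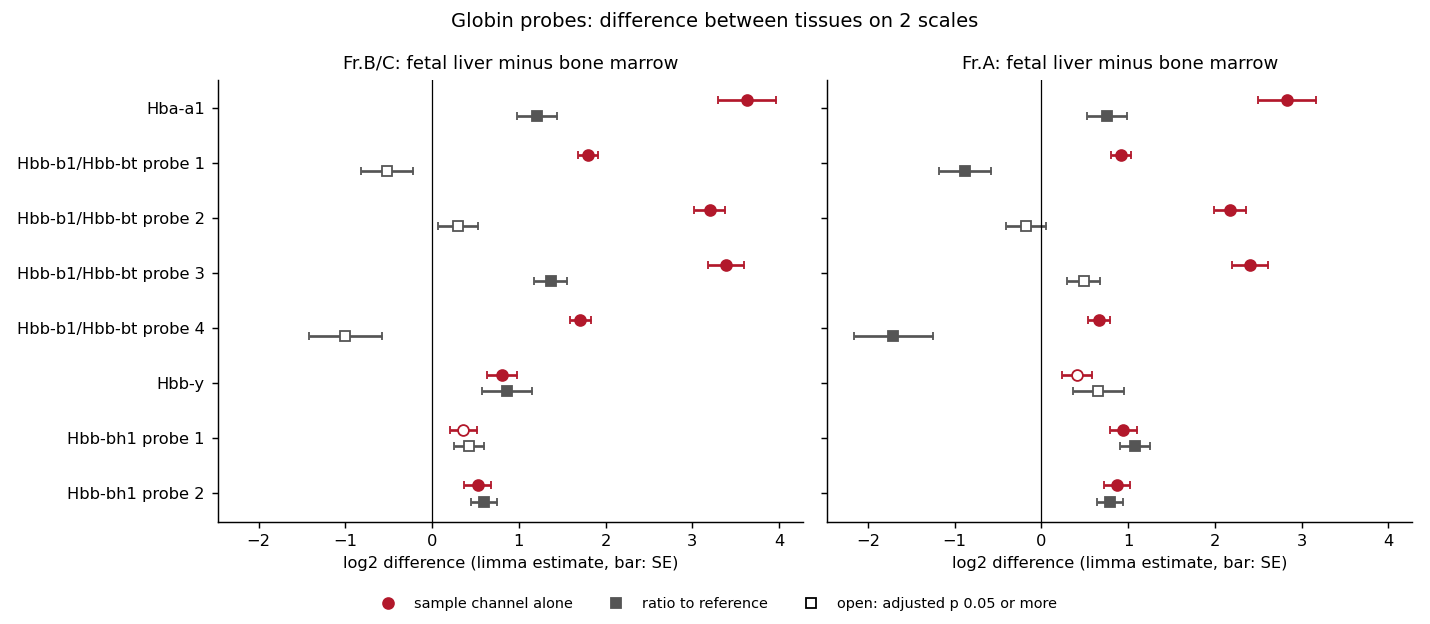
Difference of FL minus BM (log2, with SE) of the 8 fitted globin probes, Fr.B/C on the left and Fr.A on the right. Red circles are the sample channel alone, grey squares the ratio to the reference, and open symbols have an adjusted p of 0.05 or more. The sample-channel point stands well above the ratio point for every adult probe, and the points lie close together for the embryonic ones.

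The gap between the scales lay in the reference channel, which should hold the same RNA on every array. For Hba-a1 the reference signal was 410, 654, 1276 and 1054 on the FL Fr.B/C arrays and 526, 342, 956 and 1403 on the FL Fr.A arrays. It was 131, 153, 136 and 141 on the BM Fr.B/C arrays and 204, 225, 160 and 140 on the BM Fr.A arrays. Every fetal liver array lay above every bone marrow array. The mean difference was 2.25 on the log2 scale, or 4.75-fold.

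The adult beta probes differed likewise in the reference channel, by 2.06, 2.63, 1.97 and 2.60 for probes 1 to 4, or 4.16-, 6.18-, 3.91- and 6.06-fold, with no overlap. Overlap was judged on normalised values without outlier spots. The raw reference signal of probe 4, outlier spot included, spanned 965 to 10707 on fetal liver arrays and 264 to 1014 on bone marrow arrays. These raw ranges overlapped. The embryonic probes did not share this: the difference was -0.15 for Hbb-y, -0.10 and 0.01 for the Hbb-bh1 probes and 0.04 for Hba-x, and the tissues overlapped for each. Over all kept probes the median reference difference was 0.03, and 9 of 27521, or 0.0327%, differed by 2-fold or more in favour of fetal liver arrays. The 5 adult globin probes had the largest differences among them. Next came Ahsp, listed as Eraf, which encodes a chaperone of free alpha chains, with 1.71, and a probe described as alpha-globin mRNA, with 1.65. Bex4, with 1.44, and Rps4l, with 1.20, completed the set.

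Of the 66 probes at least 4-fold higher in the sample channel on fetal liver arrays, 7 were at least 2-fold higher in the reference channel, and the median reference difference of the 66 was 0.07. Of the 117 probes saturated on all fetal liver arrays, 2 were, and these are beta probes 1 and 4. The reason for the raised reference signal was not tested. The ratio of these probes therefore holds a reference that moved with the tissue and the scan session.

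**Figure D3:**
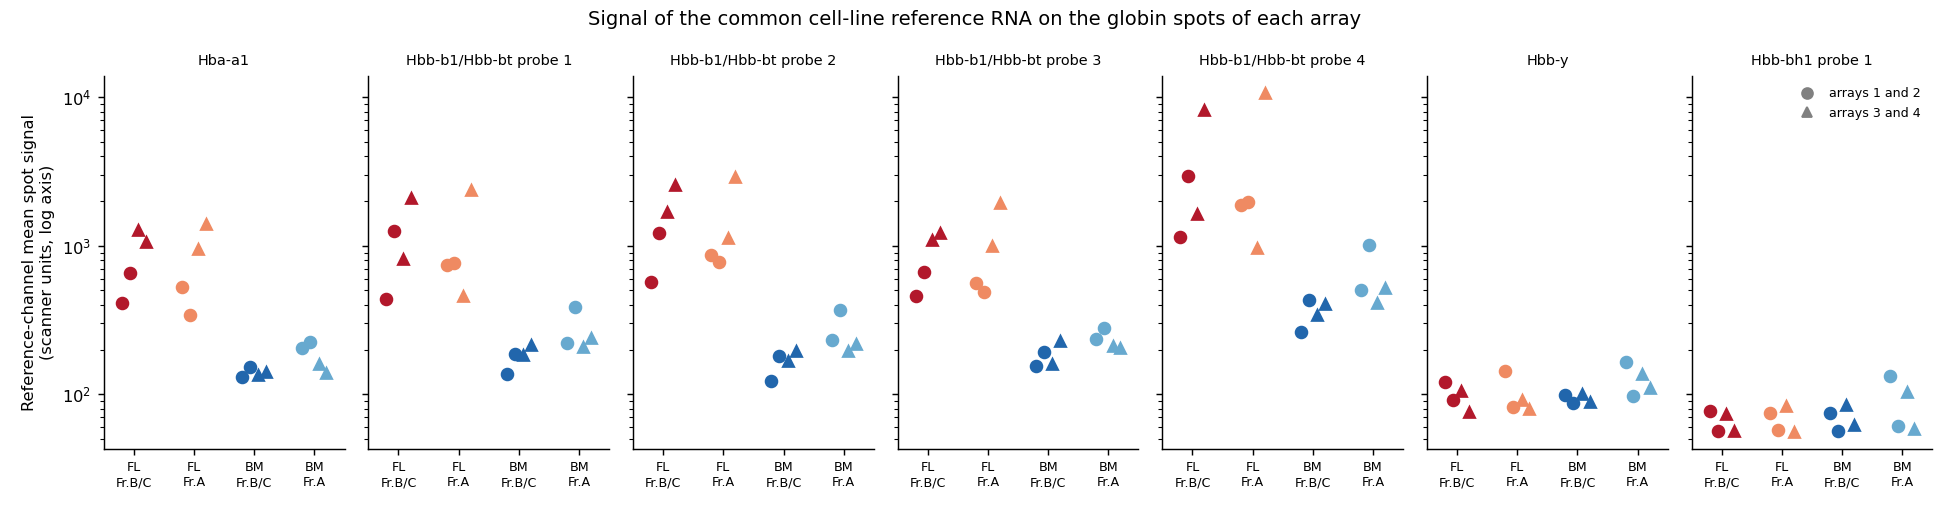
Reference-channel mean spot signal (scanner units, log axis) of Hba-a1, the 4 adult beta probes, Hbb-y and Hbb-bh1 probe 1, by the sample group hybridised on the same array, with FL groups left of BM groups. The adult globin probes are 3.91- to 6.18-fold higher on fetal liver arrays, and the embryonic probes overlap between tissues.

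The embryonic genes were dim on every array, and their reference signals overlapped between tissues. Hbb-y, the embryonic epsilon-like chain, was well above background on all 16 arrays, with sample signals of 93.3 to 214. Its log2 ratios were 0.59, 0.54, 1.74 and 1.43 in FL Fr.B/C, against 0.35, -0.00, 0.40 and 0.09 in BM Fr.B/C. They were 0.29, 0.65, 1.75 and 1.37 in FL Fr.A, against 0.60, 0.15, 0.43 and 0.26 in BM Fr.A. On the ratio scale the tissues did not overlap in Fr.B/C and did in Fr.A, through FL Fr.A array 1. The raw sample signals overlapped in Fr.B/C as well, with 128 to 190 in FL and 93.3 to 165 in BM. Their means were 161 and 125.

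Hbb-y was higher in FL Fr.B/C by 0.86 ± 0.29 (log2 ratio, SE, limma adjusted p = 0.0383), and 0.81 ± 0.17 in the sample channel (limma adjusted p = 0.00181). In Fr.A the ratio differed by 0.66 ± 0.29 (limma adjusted p = 0.113). Leaving out any BM Fr.B/C array, or FL Fr.B/C array 3 or 4, ended the Fr.B/C call, with an adjusted p of up to 0.131. The tissue difference was larger within arrays 3 and 4, where FL minus BM was 1.34 in Fr.B/C and 1.22 in Fr.A. Within arrays 1 and 2 it was 0.39 and 0.09.

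Hbb-bh1, the other embryonic beta-like gene, was read by 2 overlapping probes, which count as 1 measurement. Probe 1 was well above background on 2 of 4 FL Fr.B/C arrays, on 4 of 4 FL Fr.A arrays and on none of the 8 bone marrow arrays. Its log2 ratios were 0.21, 0.09, 1.04 and 0.63 in FL Fr.B/C and 0.94, 0.76, 1.38 and 1.21 in FL Fr.A. They were -0.05, 0.10, 0.06 and 0.16 in BM Fr.B/C and 0.14, -0.05, 0.02 and -0.12 in BM Fr.A. FL Fr.A stood apart from BM Fr.A, and FL Fr.B/C overlapped BM Fr.B/C.

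Probe 1 of Hbb-bh1 passed the filter on dim probes through FL Fr.A alone, and no BM Fr.A array was well above background, so its tissue difference is a bound. After background correction and normalisation its sample signal was at least 1.86-fold higher in FL Fr.A than in BM Fr.A, with each BM Fr.A array at its own signal or the lowest signal well above background on that array, whichever was higher. The limma adjusted p of the ratio was 0.000233, and 0.000385 with no filter. Before either step, the mean spot signals were 127 in FL Fr.A and 72.8 in BM Fr.A, or 1.75-fold apart. In Fr.B/C the ratio differed by 0.43 ± 0.17 (SE, limma adjusted p = 0.0785, and 0.0316 with replicate number as a block), with no BM Fr.B/C array well above background. Probe 2 averaged 0.89 ± 0.26 in FL Fr.A and 0.10 ± 0.15 in BM Fr.A (SD, n = 4 each), a difference of 0.79 ± 0.15 (SE, limma adjusted p = 0.00103). Only 1 of 4 BM Fr.A arrays was well above background for probe 2, so the size of this difference is not settled. In Fr.B/C it averaged 0.61 ± 0.34 in FL and 0.01 ± 0.06 in BM (SD, n = 4 each). The ratio difference in Fr.B/C passed the test (limma adjusted p = 0.00796), but no BM Fr.B/C array was well above background, and the spot signals overlapped, with means of 95.9 in FL Fr.B/C and 92.4 in BM Fr.B/C, so no fold is given. In Fr.A both overlapping probes passed the test, also with any single array left out. They entered the fit through fetal liver arrays, where they are higher, so these calls are a description. Within fetal liver arrays 1 and 2 the Fr.A difference of probe 1 was 0.80, and within arrays 3 and 4 it was 1.34.

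Hba-x, the embryonic zeta chain, was near background throughout. Its sample signals were 61.2 to 166, and it was well above background on 4 of 16 arrays: FL Fr.B/C array 4, FL Fr.A arrays 3 and 4 and BM Fr.B/C array 2. The log2 ratio averaged 0.13 ± 0.16 in FL Fr.B/C, 0.18 ± 0.24 in FL Fr.A, 0.13 ± 0.15 in BM Fr.B/C and -0.00 ± 0.07 in BM Fr.A (SD, n = 4 each). The groups overlapped on this scale, the probe was not fitted, and a tissue difference was not detectable at this signal.

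**Figure D4:**
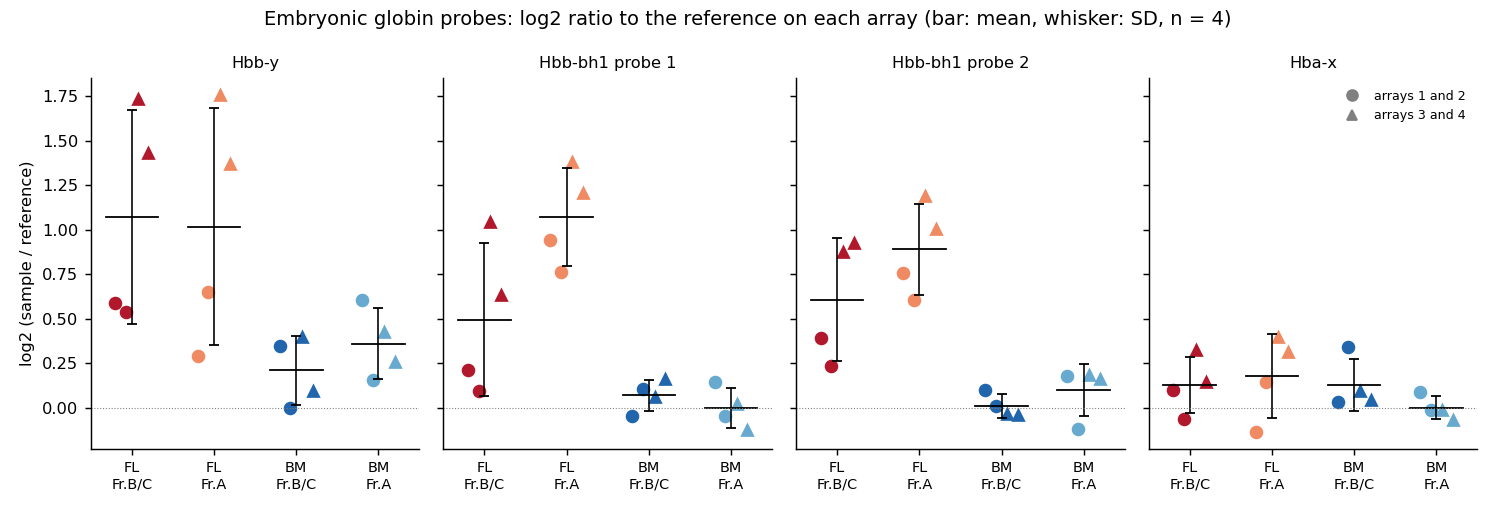
Log2 ratio of sample over reference of Hbb-y, Hbb-bh1 probes 1 and 2 and Hba-x on each array for FL Fr.B/C, FL Fr.A, BM Fr.B/C and BM Fr.A, with the mean (bar) and SD (whisker, n = 4). In fetal liver, arrays 3 and 4 (triangles) lie above arrays 1 and 2 (circles) for Hbb-y and Hbb-bh1, and bone marrow lies near 0 for Hbb-bh1 and between -0.00 and 0.60 for Hbb-y.

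Between the stages, the adult genes were lower in BM Fr.B/C than in BM Fr.A in the sample channel. Beta probe 4 was 2.48-fold lower, probe 2 was 2.11-fold lower, probe 1 was 2.08-fold lower and probe 3 was 1.92-fold lower in BM Fr.B/C (limma adjusted p = 4.34e-07, 0.000191, 2.49e-06 and 0.00166). Hba-a1 was 1.71-fold lower and missed the threshold (limma adjusted p = 0.0806). No saturated spot entered these values, and all 5 probes were lower with no overlap, as were 17.4% of the kept probes with all arrays usable. The sample channel called 18% of kept probes lower.

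The same fall appeared in each bone marrow scan session that held both fractions. Beta probe 4 differed by -1.67, -0.98 and -1.07 in these 3 sessions, and Hba-a1 by -1.01, -0.78 and -0.46 (log2, sample channel). As a ratio, only probe 3 passed, with -0.68 ± 0.19 (SE, limma adjusted p = 0.0119, where 17.2% of kept probes were called lower). This call was lost under 7 alternatives, among them no dye term (adjusted p = 0.0599) and scaling between arrays (-0.11, adjusted p = 0.891). With replicate number as a block in place of the dye term, probe 2 passed as well (limma adjusted p = 0.0304, against 0.0673 without the block). With sort as a random block, probes 1 and 2 both passed (limma adjusted p = 0.0367 and 0.0161). Hbb-y differed by -0.15 between the bone marrow fractions (limma adjusted p = 0.754). Of the 8 bone marrow arrays, Hbb-bh1 probe 1 was well above background on none and probe 2 on 1, so a step was not detectable for this gene.

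In fetal liver, saturation of both fractions left no step to read for beta probes 1 and 4. For Hba-a1 the ratio differed by -0.08 ± 0.23 (SE, limma adjusted p = 0.862), and its sign turned between scan sessions, with 0.42 in the session of arrays 1 and 2 and -0.58 in that of arrays 3 and 4. The ratios of probes 2 and 3 differed by -0.11 and 0.20 (limma adjusted p = 0.812 and 0.540), with both fractions saturated on arrays 3 and 4, so these values give no size for a step. Hbb-bh1 probe 1 was lower in FL Fr.B/C than in FL Fr.A by 0.58 ± 0.17 (SE, log2 difference of -0.58, limma adjusted p = 0.0237, where 12.2% of kept probes were called lower). It was lower in both scan sessions, by -0.70 and -0.46, and its adjusted p was 0.0351 with no filter on dim probes. FL Fr.B/C arrays 1 and 2 were not well above background, so the size of this step is not settled. The call ended without FL Fr.A array 3 or 4 or FL Fr.B/C array 1 or 2 (adjusted p up to 0.0859). Probe 2 of the gene, with -0.28 ± 0.15, did not pass (limma adjusted p = 0.219).

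A test of the difference between the steps of the tissues found none of the 8 probes on the ratio scale, where 6.74% of kept probes were called. The nearest was beta probe 3, with 0.88 ± 0.27 (SE, limma adjusted p = 0.0645), which passed with the replicate block (adjusted p = 0.0268). Hbb-bh1 probe 1, with -0.65 and an adjusted p of 0.139, passed with sort (adjusted p = 0.0269) or scan session (adjusted p = 0.0149) as a random block, and its bone marrow side was not above background. Beta probe 3 also passed with these blocks (adjusted p = 0.00828 and 0.0123). In the sample channel all 4 beta probes passed, between 0.88 and 1.04 with adjusted p-values of 0.00112 to 0.0351, where 6.14% of kept probes were called in this direction. The fetal liver side of these values is saturated on some or all arrays, so they give no size for the difference between steps.

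Other globin probes were read beside the members. The unnamed probe described as alpha-globin mRNA was 12.3-fold higher in FL Fr.B/C in the sample channel, close to the value of Hba-a1, and at least 7.15-fold higher in FL Fr.A, where 2 arrays were saturated. Its log2 ratio was higher by 1.92 ± 0.26 in Fr.B/C and by 1.23 ± 0.26 in Fr.A (SE, limma adjusted p = 5.53e-05 and 0.00217). Hba-ps4, an alpha pseudogene in the annotation, was higher by 1.69 and 1.38 (limma adjusted p = 0.000256 and 0.00123). Of the fixed list of other globin genes, 5 of 10 were measured. The theta-like genes Hbq1b and Hbq1a were higher in FL Fr.B/C by 1.43 and 0.70 (limma adjusted p = 0.00786 and 0.0257) and in FL Fr.A by 1.15 and 0.64 (limma adjusted p = 0.0262 and 0.0390). No BM Fr.B/C array was well above background for Hbq1a, so its Fr.B/C value gives no exact size. Neuroglobin (Ngb), cytoglobin (Cygb) and myoglobin (Mb), which are not made for red cells, did not pass in either fraction, with differences between -0.15 and 0.21.

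The dim globin probes split by fetal liver array set in the same way. Hbq1b averaged 2.14 on arrays 3 and 4 and 0.83 on arrays 1 and 2, Hbq1a 1.15 and 0.36, Hbb-y 1.57 and 0.52, and Hbb-bh1 probe 1 1.06 and 0.50 (log2 ratio, 4 fetal liver arrays each). In bone marrow the corresponding differences were between -0.08 and 0.02. The saturated adult beta probe 4 went the other way, with 3.59 on arrays 3 and 4 and 5.03 on arrays 1 and 2 as a ratio. The 3.59 leaves out the outlier spot of FL Fr.A array 3, so Cy5 arrays are fewer than Cy3 arrays in it. The deposited ratio of this probe in FL Fr.B/C was 5.44 on array 3, in Cy5, and 2.68 on array 4, in Cy3. The size of this gap is therefore not settled.

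Erythroid markers, the 26 red-cell membrane, enzyme and chaperone genes of a fixed list, had the largest median difference between tissues among the 9 fixed lists. Of the 23 measured, 15 were higher and 0 lower in FL Fr.B/C than in BM Fr.B/C, with a median of 1.53, and 16 were higher and 1 lower in Fr.A, with a median of 1.60. The medians over all kept probes were 0.01 and -0.01. Of kept probes, 13.4% were called higher and 14.7% lower in Fr.B/C, and 12.4% and 15.7% in Fr.A. Ahsp was higher by 3.58 ± 0.25 in Fr.B/C and by 2.93 ± 0.25 in Fr.A (SE, limma adjusted p = 4.86e-08 and 4.91e-07). Slc4a1, the band 3 anion exchanger, was higher by 3.26 and 2.41 (limma adjusted p = 4.89e-06 and 8.57e-05). Tspan33, a tetraspanin, and Cldn13, an erythroid claudin, were higher in Fr.B/C by 2.07 and 2.72 (limma adjusted p = 6.42e-05 and 0.000777). Car2, a carbonic anhydrase, was higher in FL Fr.A by 1.60 (limma adjusted p = 0.000503). The exception was Gfi1b, a transcription repressor of erythroid and megakaryocyte cells, which was lower in FL Fr.A by -1.24.

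The list mean per array followed the same array sets as the embryonic globins. It was 1.04, 0.98, 2.17 and 2.11 in FL Fr.B/C and 1.01, 0.97, 2.40 and 2.27 in FL Fr.A (log2 ratio, arrays 1 to 4). In bone marrow it was -0.01 to 0.27 in Fr.B/C and 0.20 to 0.35 in Fr.A. Between stages, Car2 was higher and Gfi1b lower in BM Fr.B/C than in BM Fr.A, and Gfi1b was lower in FL Fr.B/C than in FL Fr.A. The part of erythroid cells in the globin values was not tested. Klf1, the factor that drives adult beta-globin, and Rhd, a blood group protein, moved in the direction of Slc4a1 and are named here after their values were seen. Rhd is of this list, while Klf1 is of the list of globin gene regulators, whose calls went both ways. Of those regulators, 5 were higher and 6 lower in FL Fr.B/C, and 6 were higher and 4 lower in FL Fr.A. Klf1 was higher in FL by 2.52 in Fr.B/C and 2.63 in Fr.A, and Rhd by 3.55 and 3.08 (limma adjusted p between 0.000389 and 0.00293).

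**Figure D5:**
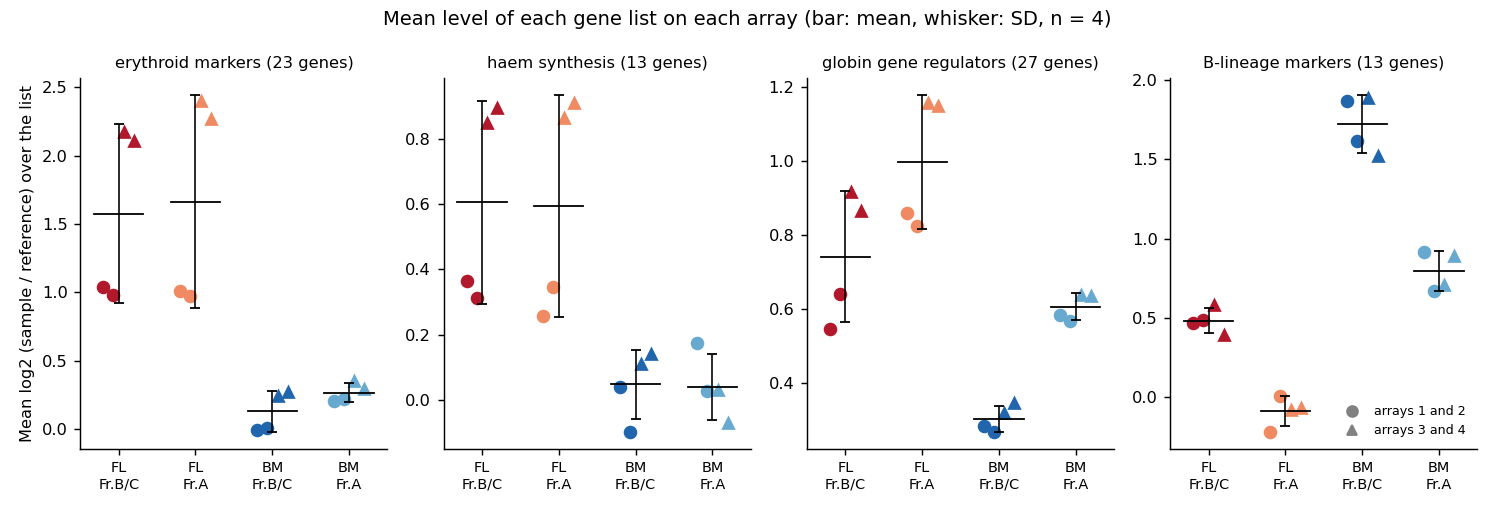
Mean log2 ratio of sample over reference on each array over the measured genes of 4 fixed lists: erythroid markers (23), haem synthesis (13), globin gene regulators (27) and B-lineage markers (13), with FL groups left of BM groups. The erythroid mean is 0.97 to 2.40 on fetal liver arrays and -0.01 to 0.35 on bone marrow arrays.

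Haem synthesis supplies the group that each globin chain binds. Of the 13 genes, 5 were higher and 2 lower in FL Fr.B/C, with a median of 0.20, and 4 were higher and 0 lower in FL Fr.A, with a median of 0.27. These are 38.5% and 15.4% of the list in Fr.B/C and 30.8% and 0% in Fr.A. Of kept probes, 13.4% were called higher and 14.7% lower in Fr.B/C, and 12.4% and 15.7% in Fr.A. The lower share in Fr.B/C is thus near that of all probes. Alas2, the erythroid form of the first enzyme, was higher by 1.77 ± 0.28 in Fr.B/C and 0.79 ± 0.28 in Fr.A (SE, limma adjusted p = 0.000252 and 0.0493). Fech, which inserts the iron, was higher by 1.17 and 1.39, and Tspo2, an erythroid translocator protein, by 1.84 and 1.61 (limma adjusted p between 0.000430 and 0.00888). The lower ones in Fr.B/C were Alad, by -0.67, and Alas1, the form used in most tissues, by -0.31. Between stages none of the 13 passed in fetal liver, where 10% of kept probes were called higher. In bone marrow 3 did, Ppox, Uros and Urod, which were higher in Fr.B/C, where 14.2% were called higher.

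Among 11 genes of iron uptake and haem handling, 2 were higher in FL Fr.B/C and 4 in FL Fr.A, and none was lower. These are 18.2% and 36.4% of the list, against 13.4% and 12.4% of kept probes, so the Fr.B/C share is near that of all probes. Eif2ak1, the haem-regulated kinase that limits globin translation, was higher by 0.69 and 0.74 (limma adjusted p = 0.000850 and 0.000436). Hmox1, which degrades haem, was higher by 0.81 and 0.66 (limma adjusted p = 0.00131 and 0.00529). Tfrc, the transferrin receptor, was higher in FL Fr.A by 1.80 (limma adjusted p = 0.00267) and differed by 0.90 in Fr.B/C (limma adjusted p = 0.103). Blvrb, a biliverdin reductase, was higher in FL Fr.A by 1.26 (limma adjusted p = 0.0424).

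Between the tissues, the regulators of globin genes had calls at shares not far from those of all probes. Of 27, 5 (18.5%) were higher and 6 (22.2%) lower in FL Fr.B/C, with a median of 0.04, where 13.4% and 14.7% of kept probes were called. In FL Fr.A, 6 (22.2%) were higher and 4 (14.8%) lower, with a median of 0.16, where 12.4% and 15.7% were called. The RNA-binding proteins Lin28b and Igf2bp1, which are tied to the fetal programme, stood near background in bone marrow, with 0 of 8 arrays well above it. In the sample channel Lin28b was at least 12.7-fold higher in FL Fr.B/C and at least 11.7-fold higher in FL Fr.A, and Igf2bp1 at least 20.2-fold and at least 16.9-fold higher (limma adjusted p of 1.12e-11 or less). Hmga2, a chromatin protein of the same programme, was higher in FL Fr.B/C by 3.81 (log2 ratio, limma adjusted p = 1.78e-09). In FL Fr.A its spot was saturated on array 2 and read 62335 to 64685 on the others, and it was at least 8.30-fold higher than in BM Fr.A in the sample channel (limma adjusted p = 7.2e-10). Zfpm1, the GATA1 cofactor, was lower in FL Fr.B/C by -1.29 (limma adjusted p = 1.16e-05), and Myb was lower in FL Fr.A by -1.08 (limma adjusted p = 1.65e-06). Bcl11a, a repressor of embryonic beta-like genes named here after its values were seen, differed by 0.04 in Fr.B/C and 0.29 in Fr.A (limma adjusted p = 0.860 and 0.183). Between stages, 3 (11.1%) were higher and 10 (37.0%) lower in BM Fr.B/C, where 14.2% and 17.2% of kept probes were called. In FL Fr.B/C, 1 (3.70%) was higher and 6 (22.2%) lower than in FL Fr.A, where 10% and 12.2% were called. Hmga2 was lower in Fr.B/C than in Fr.A of BM by -4.08 (log2 ratio) and at least 10.8-fold lower in Fr.B/C than in Fr.A of FL in the sample channel. Klf3 was lower by -1.02 in BM and -0.71 in FL.

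Markers of other cell types had smaller or negative median differences, and their counts are to be read against 13.4% of kept probes called higher and 14.7% lower in Fr.B/C, and 12.4% and 15.7% in Fr.A. B-lineage markers, 13 of 15 measured, had 7 lower and 0 higher in FL Fr.B/C and 3 lower and 0 higher in FL Fr.A, with medians of -0.39 and -0.22. Dntt, terminal transferase, was saturated on all bone marrow arrays and at least 354-fold lower in FL Fr.B/C and at least 290.5-fold lower in FL Fr.A (sample channel, limma adjusted p of 4.33e-14 or less). Blnk, an adaptor of B-cell signalling, was lower in FL Fr.B/C by -1.41 (log2 ratio, limma adjusted p = 2.59e-05). The B-lineage mean per array was 0.39 to 0.58 in FL Fr.B/C and -0.22 to 0.01 in FL Fr.A, against 1.52 to 1.88 in BM Fr.B/C and 0.67 to 0.91 in BM Fr.A. Of 9 hepatocyte markers 4 were measured, with 2 higher and 1 lower in FL Fr.B/C and 0 higher and 2 lower in FL Fr.A, and medians of 0.30 and -0.46. Alb, Apoa1, Apoa2 and Ttr did not pass the filter on dim probes, and the list mean was -0.13 to 0.22 in FL Fr.B/C and 0.58 to 0.68 in FL Fr.A, against -0.05 to 0.11 in BM Fr.B/C and 1.04 to 1.56 in BM Fr.A. Macrophage markers, 10 of 11 measured, had 4 higher and 1 lower in each fraction, and megakaryocyte markers, 6 of 8 measured, had 1 (16.7%) higher in FL Fr.B/C and 2 higher in FL Fr.A. The macrophage mean was 0.21 to 0.49 in FL Fr.B/C and 0.22 to 0.76 in FL Fr.A, against -0.11 to 0.10 in BM Fr.B/C and 0.30 to 0.47 in BM Fr.A. The megakaryocyte mean was -0.64 to -0.32 in FL Fr.B/C and 0.02 to 0.22 in FL Fr.A, against -1.17 to -0.82 in BM Fr.B/C and -0.69 to -0.52 in BM Fr.A. The part of these cell types in the globin values was not tested.

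The members were also described by the genes whose log2 ratio was most like theirs across the 16 arrays, among 13132 named genes. These are descriptions with no test, since the arrays share tissues and scan sessions. Hbb-y ran closest to Samd14 (Pearson r = 0.964), Dmtn (0.961), Icam4 (0.956), Fam214b (0.956) and Add2 (0.954). Dmtn and Add2 encode proteins of the red-cell membrane skeleton and Icam4 a red-cell adhesion protein. Among the genes closest to Hbb-bh1 probe 2 were Stfa3 (0.954), Icam4 (0.951), Ppfibp2 (0.950) and Cldn13 (0.947), and probe 1 ran closest to Cysltr1 (0.947), Acot11 (0.943), Nrcam (0.935), Dhx9 (0.932) and C1qc (0.930).

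The adult genes had other neighbours, with lower values. Their ratios hold the raised reference and saturated fetal liver spots, so these neighbours need not follow the globin level. Hba-a1 ran closest to Evi2a (0.907), Bex4 (0.906), Slc39a9 (0.880), Asb4 (0.876) and Pak1 (0.873). The best r of the beta probes was 0.817 with Mmp21 for probe 1, 0.849 with C2cd4c for probe 2, 0.894 with Ptcd3 for probe 3 and 0.927 with Zbtb25 for probe 4, the last over 15 arrays and 13148 genes. Among the members, beta probes 1 and 4 had r = 0.961 as ratios, and Hba-a1 had 0.867 with beta probe 3 and -0.303 with beta probe 4. In the sample channel of the 8 bone marrow arrays, where nothing was saturated, Hba-a1 had r of 0.857 to 0.928 with the 4 beta probes. Hbb-y had r of 0.797 and 0.873 with the Hbb-bh1 probes as ratios.

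The authors' deposited table gave the same order of group means as the ratios computed here for Hbb-y and both Hbb-bh1 probes, but not for Hba-x. Hbb-bh1 probe 1 averaged 1.05 ± 1.11 in FL Fr.B/C and 2.36 ± 0.41 in FL Fr.A, against 0.03 ± 0.61 in BM Fr.B/C and -0.09 ± 0.20 in BM Fr.A (log2 ratio, SD, n = 4 each). In that table Hbb-y averaged 1.91 ± 1.04 in FL Fr.B/C and 1.89 ± 1.22 in FL Fr.A, against 0.45 ± 0.57 in BM Fr.B/C and 0.64 ± 0.35 in BM Fr.A. Adult beta probe 4 in the authors' deposited table averaged 4.55 ± 1.40 in FL Fr.B/C and 4.78 ± 1.61 in FL Fr.A, against 5.76 ± 0.37 in BM Fr.B/C and 6.37 ± 0.53 in BM Fr.A. The deposited ratio of this probe is thus lower in fetal liver, while its fetal liver sample signal was at the ceiling of the scanner on all 8 arrays.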

How the data were processed

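Raw spot intensity in both dyes came from the deposited scanner files, which per the file headers were extracted by Agilent's software, Feature Extraction 8.5.1.1. The authors' deposited table holds log2 ratios of sample over reference, made with limma per the submitters' processing notes, with version and steps not given in the sources used here. Its columns had medians of -0.007 to 0.020 and correlated at 0.951 to 0.965 with the ratios computed here. The probes' genome build and the extraction day of the sorts are not given in the sources used here.

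Mean signals were background-corrected (normexp, offset 50) and loess-normalised within arrays, without control and outlier spots, in limma 3.58.1 (R 4.3.3). Spots of a probe were averaged. Kept probes were well above background on at least 3 of 4 arrays of a group and usable on 12 arrays. The fit held all 16 arrays, 4 group means and a dye term, with 11 residual degrees of freedom. The sample channel alone was taken after loess and Aquantile, and each group held both dye orientations equally. On simulated data, 50, 48, 47 and 50 of 50 probes changed by log2 -2, -1, 1 and 2 were called.

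Each sort gave both fractions of a tissue, and the labels do not say which arrays share a sort. Same-numbered arrays of a tissue deviated together (r = 0.535 to 0.574 in BM and 0.297 to 0.456 in FL). The numbers were taken to mark the sort. Between tissues, same-numbered Fr.B/C arrays did so as well (r = 0.374 to 0.521), while 1 of 4 Fr.A pairs did not. Arrays of different tissues share no animals, and the number also goes with dye and array set. The correlations therefore cannot show the pairing. Sorts are separate pools of animals, and nothing more is known of how they differ.

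Genes were named through RefSeq records. Named genes are all globin members, up to 4 genes of the smallest adjusted p per list and comparison, and the 5 genes of highest r per probe. A gene's brightest kept probe stands for it. A few genes that this rule names are not reported here. The members and lists were chosen with earlier results of these data known. Alternatives covered background, normalisation, filter, dye, blocks, array sets, saturated spots and each array left out.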

Additional observations from a re-analysis of the deposited data

Results flagged for a closer look

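Of 70 groups of 4 arrays tested, 3 held an array whose gap to its nearest neighbour, as a part of the group's range, was above Dixon's critical value at 95%, and chance gives such a gap in about 1 in 20 groups. They were Hba-a1 on FL Fr.A array 3, with a log2 ratio of 6.22, Hba-x on BM Fr.B/C array 2, with 6.41 in the sample channel, and Hbb-bh1 probe 2 on BM Fr.A array 2, with a ratio of -0.12.

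The step between fractions, FL (Fr.B/C minus Fr.A) minus BM (Fr.B/C minus Fr.A), differed between the tissues in the sample channel for the adult beta probes 1 to 4, by 0.88, 1.02, 0.98 and 1.04 (log2). Their fetal liver signals were saturated on all arrays (probes 1 and 4) or on arrays 3 and 4 (probes 2 and 3), so these values give no size for the difference.

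The reference channel, which no comparison of groups uses by itself, was higher on fetal liver than on bone marrow arrays for Hba-a1, by 2.25, and for beta probes 1 to 4, by 2.06, 2.63, 1.97 and 2.60 (log2).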

How the results depend on the processing

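The counts of probes called were 7717 in FL Fr.A minus BM Fr.A, 7736 in FL Fr.B/C minus BM Fr.B/C, 8638 in BM Fr.B/C minus BM Fr.A, 6115 in FL Fr.B/C minus FL Fr.A and 1855 for the difference between these steps. With each array left out in turn they ran over 6325 to 7673, 6002 to 8041, 7426 to 8907, 4974 to 6320 and 1302 to 1944, in this order of comparisons. Other alternatives that moved a count by more than 1.5 times follow in the same order. With 1 probe per gene name, which tests fewer probes, they were 4133, 4527, 4654, 3533 and 1048. Averaging arrays 1 and 2 and arrays 3 and 4, which leaves fewer samples, gave 2640, 2133, 3737, 2091 and 41. Cy5 arrays alone gave 2503, 1837, 3004, 1948 and 28, and Cy3 arrays alone gave 2259, 1661, 2948, 1451 and 13. Median centring in place of loess gave 4692 in FL Fr.A minus BM Fr.A, 4979 for the BM step, 3227 for the FL step and 492 for the difference between steps. It also moved the share of higher calls, to 23.7%, 19%, 40.7%, 31.6% and 51.8%, against 44.1%, 47.8%, 45.2%, 45.1% and 56.4% with loess. Arrays 3 and 4 only gave 12701 and 11627 for the tissue comparisons, 11767 for the FL step and 8871 for the difference between steps. That last count was 845 with arrays 1 and 2 only, 1043 with scaling between arrays, 3638 in the sample channel alone, 3608 with scan session as a random block, 3758 with sort as a random block and 3262 with the replicate block.

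The replicate block, in place of the dye term, made 3 tissue differences pass: beta probe 3, Hbb-y and Hbb-bh1 probe 1 at 0.49 (Fr.A), 0.66 (Fr.A) and 0.43 (Fr.B/C), with adjusted p of 0.0367, 0.0325 and 0.0316. Apart from these and the beta probe 2 and 3 results given with the stages, it changed no member's call. Sorts of different tissues come from different animals, yet same-numbered arrays deviated together in Fr.B/C (r = 0.374 to 0.521) and in 3 of 4 pairs in Fr.A (r = -0.132 to 0.287). Sort as a random block made beta probe 3 pass in Fr.A (adjusted p = 0.0496).

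The sample channel alone turned the direction of beta probe 1 (0.91 in Fr.A, 1.80 in Fr.B/C), beta probe 2 in Fr.A (2.17) and beta probe 4 (0.66 in Fr.A, 1.71 in Fr.B/C), all FL minus BM. Their ratios have saturated fetal liver numerators and a raised reference. With sample-saturated spots left out, beta probes 1 and 4 had no fetal liver value, so their tissue difference could not be estimated. In that setting beta probe 2 in Fr.B/C was 0.76 (adjusted p = 0.00438), beta probe 3 in Fr.A was 0.72 (adjusted p = 0.00925) and Hba-a1 in Fr.A was 0.58 (adjusted p = 0.159). Hba-a1 lost its Fr.B/C call with the deposited table, with the scanner's processed signals (0.50, adjusted p = 0.160), with Cy5 arrays alone (1.25, adjusted p = 0.140) and with scaling (1.01, adjusted p = 0.0711). Its Fr.A call was lost with these, with arrays 1 and 2 only, averaged sets, median centring, an offset of 10 and scan session as a block. Hbb-bh1 probe 1 in Fr.A passed under every alternative run, and probe 2 lost its Fr.A call with either dye alone and with averaged array sets. The probe 2 call in Fr.B/C was lost with these and with arrays 1 and 2 only, and the FL step of probe 1 with either dye alone, averaged sets and processed signals. The ratio step of beta probe 3 in BM was lost with either dye alone, averaged sets, median centring, scaling, processed signals and no dye term. Beta probe 3 in Fr.B/C lost its call with scaling only (1.17, adjusted p = 0.0529). Hbb-y in Fr.B/C lost its call with arrays 1 and 2 only, averaged sets, either dye alone, median centring and no filter on dim probes. Where no cause is stated, the cause was not tested. Apart from arrays left out, 745 results kept their side of the threshold, 47 passed newly and 53 no longer passed. The 745 include values that passed in neither case and whose sign turned. A further 5 turned direction, all in the sample channel alone as given above. Saturation limits the adult genes in fetal liver, and low signal over background limits the embryonic ones.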
